A study of Chlamydomonas reinhardtii with 18 samples.

Results

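The 5 genes described here are grouped as inorganic carbon transporters of the CO2-concentrating mechanism of the unicellular green alga Chlamydomonas reinhardtii. The group holds HLA3, LCI1, NAR1.2 (also called LCIA), CCP1 and CCP2. They were found by name, as a gene name or synonym in the deposited table, where each name matched 1 of 17741 genes. Cells of the laboratory strain CC-4532 had grown in acetate medium (TAP) at 24 °C, with the lamps always on at about 90 µmol photons per square metre per second. They were spun down at 2500 g for 5 min, washed in TAP without Fe-EDTA and moved to fresh TAP with 0 µM Fe-EDTA, which puts them into iron starvation. Polyadenylated RNA was sequenced from 18 samples in 9 groups of 2 cultures: before the wash (pre-wash), directly after it (post-wash), after 5, 10 and 15 min, after 30 and 60 min, and after 120 and 240 min. All groups are the same strain in the same kind of medium, and only the pre-wash cells had not been spun and washed. How much iron the cells had before the wash is not stated in these sources. No cells moved to fresh medium with iron are among these samples, so spinning, fresh medium, time and the lack of iron cannot be told apart.

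Algae fix CO2 with Rubisco, an enzyme that works poorly at the CO2 levels of air-equilibrated water. The CO2-concentrating mechanism moves bicarbonate and CO2 across the membranes of the cell into the chloroplast and raises CO2 around Rubisco in the pyrenoid, a compartment of the chloroplast. Its transporter genes are known for weak expression at high CO2 and strong expression at low CO2, a switch that needs the regulator CCM1, also called CIA5. HLA3, an ABC transporter, and LCI1 sit in the plasma membrane and bring inorganic carbon into the cell. NAR1.2, a relative of formate and nitrite transporters, sits in the chloroplast envelope. CCP1 and CCP2 are related to mitochondrial carriers. The deposited product lines call them chloroplast envelope proteins, while later work placed them in mitochondria.

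The table gives expression as FPKM, the number of fragments per kilobase of a transcript relative to all mapped fragments, a unit that can be compared between genes. It holds 1 value per gene and sampling point, made by the authors from both cultures. Every value below is therefore the authors' combined value, with no replicate error and no test, and the depth behind it is unknown. FPKM is relative to all mapped fragments, so a change in total mRNA per cell cannot be told apart from it. A gene was counted as higher or lower when its log2(FPKM + 1) differed by at least 2-fold, among the 12580 genes that reached 1 FPKM in 2 or more sampling points. All 5 members passed that filter, 4 of them reaching 1 FPKM in all 9 sampling points and LCI1 in 8. Single genes are also given as plain ratios of FPKM. The closest neighbouring samples, those at 10 and 15 min, had a robust SD of log2 differences of 0.168 over all kept genes, and pre-wash and post-wash, the furthest apart, one of 0.451. These spreads hold real change as well as variation between samplings.

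Before the wash all 5 genes were weakly expressed, between 0.390 FPKM (LCI1) and 6.21 FPKM (CCP1). From 5 min on, each was at least 2-fold above pre-wash in every later sample. Their summed level was 17.3 FPKM before the wash, 192 directly after it, 1238 at 30 min and 1509 at 240 min. Of the 12580 genes, 45 (0.358%) were at least 2-fold above pre-wash in all 7 samples from 5 to 240 min, and all 5 transporter genes were among them. The courses fell into different shapes, shown in the plot of FPKM by sampling point. CCP2 and NAR1.2 were already high directly after the wash and highest at 10 to 15 min. HLA3 was not higher until 5 min. LCI1 and CCP1 were highest at 240 min.

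**Figure D1:**
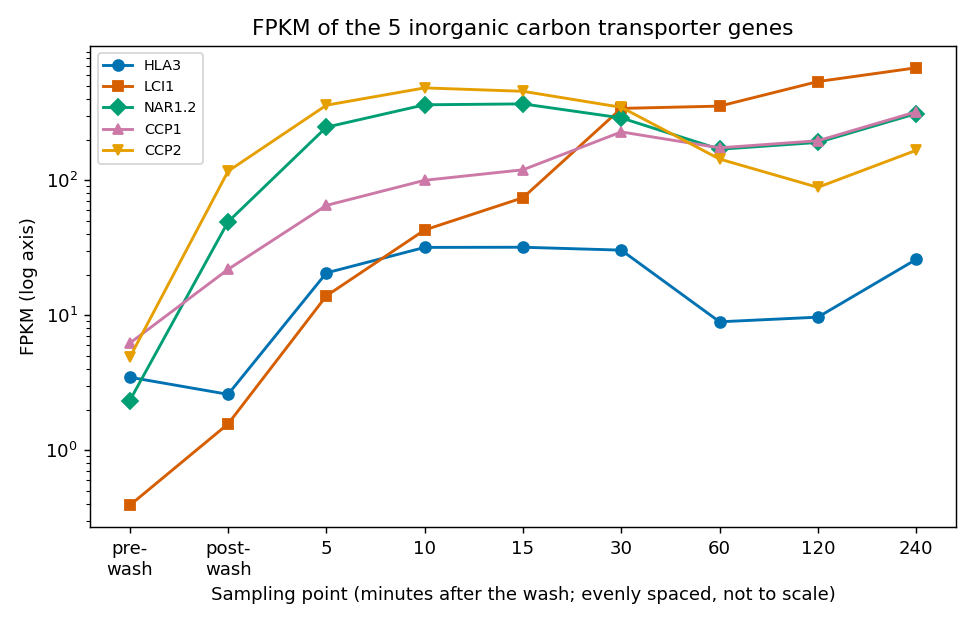
FPKM of HLA3, LCI1, NAR1.2, CCP1 and CCP2 on a log axis at the 9 sampling points, which are evenly spaced and not to scale in time. Each point is the authors' value for 2 cultures together, so there are no error bars. LCI1 runs from 0.390 to 682 FPKM, while HLA3, NAR1.2 and CCP2 pass through a low stretch at 60 to 120 min.

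Among the carriers at the plasma membrane, HLA3 (Cre02.g097800) was at 3.47 FPKM before the wash and 2.59 FPKM after it. It reached 20.6 FPKM at 5 min, 31.8 and 31.9 FPKM at 10 and 15 min and 30.4 FPKM at 30 min, stood at 8.94 and 9.68 FPKM at 60 and 120 min, and ended at 25.9 FPKM at 240 min. Its values thus form a plateau from 10 to 30 min, a low stretch at 60 and 120 min and a second high value at 240 min. The step from post-wash to 5 min was 7.94-fold, with a log2(FPKM + 1) difference of 2.59, the highest of all 12580 genes on that scale. That rank depends on the pseudocount. By plain ratio several genes were further apart, among them LCI1, with 8.89-fold, and CYG63, which went from 0.797 to 8.47 FPKM. A pseudocount of 0.1 gave 3.07 for LCI1 and 2.94 for HLA3. From 30 to 60 min the log2 difference was -1.66, and from 120 to 240 min it was 1.34. HLA3 was the weakest of the 5 genes from 10 min on. At 10 min it ranked 2149th of the kept genes by FPKM, where CCP2 ranked 230th.

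LCI1 (Cre03.g162800), which the deposited product line describes as a low-CO2-inducible membrane protein, differed most of the 5. It was at 0.390 FPKM before the wash and 1.57 FPKM after it. The samples at 5, 10 and 15 min had 13.9, 42.9 and 74.3 FPKM, those at 30 and 60 min had 341 and 355 FPKM, and those at 120 and 240 min had 539 and 682 FPKM. Every value was above the one before it, and the gene went from rank 12496 of 12580 by level before the wash to rank 173 at 240 min. The ratio of 240 min to pre-wash was 1748, but it rests on a pre-wash value under 1 FPKM. On the log2(FPKM + 1) scale the difference was 8.94, and 8.06 against post-wash. The single steps were uneven. The log2 difference was 1.56 from 5 to 10 min, the highest of all genes in that step on the log2(FPKM + 1) scale, then 0.78 up to 15 min and 2.18 up to 30 min. The later steps were 0.06 to 60 min, 0.60 to 120 min and 0.34 to 240 min. LCI1 was at 0.88 directly after the wash against pre-wash, below the 2-fold line, and on the same scale had the highest difference from pre-wash of any gene at 30, 60, 120 and 240 min.

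In the chloroplast envelope, NAR1.2 (Cre06.g309000) was at 2.33 FPKM before the wash and 49.3 directly after it, a 21.1-fold ratio. It was then at 248 FPKM at 5 min, at 363 and 369 FPKM at 10 and 15 min, and at 290 FPKM at 30 min. Lower values of 170 and 191 FPKM at 60 and 120 min preceded 312 FPKM at 240 min. The values at 10 and 15 min differ by less than the spread of all genes between those samples. NAR1.2 had the highest difference from pre-wash of any gene at 5, 10 and 15 min, with log2(FPKM + 1) differences of 6.22, 6.77 and 6.79. This first rank depends on the pseudocount at all of these times. By plain ratio Cre26.g756747, a gene without a symbol, was further above pre-wash at 5 and 10 min. It went from 0.969 FPKM before the wash to 136 and 191 FPKM. At 15 min the plain ratio to pre-wash was 158 for NAR1.2 and 190 for LCI1. The lowest later value of NAR1.2, at 60 min, was still 46.1% of its highest and 72.9-fold above pre-wash.

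NAR1.2 is 1 of 5 genes of the NAR1 family in the table, which are named after formate and nitrite transport. The others did not share its whole course. NAR1.3 was at 12.3 FPKM before the wash and 89.8 after it. It was at 57.4, 42.6 and 27.2 FPKM at 5, 10 and 15 min, 6.29 at 30 min and 3.34 at 60 min. Like NAR1.2, NAR1.3 was at least 2-fold above pre-wash from post-wash to 15 min (log2 differences of 2.77, 2.14, 1.72 and 1.09). Unlike NAR1.2, it was highest directly after the wash. NAR1.4 and NAR1.5 ran between 9.84 and 24.0 FPKM and between 16.8 and 42.0 FPKM. NAR1.6 stayed under 0.03 FPKM and did not pass the filter.

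The carrier CCP2 (Cre04.g222750) was at 4.88 FPKM before the wash and 117 FPKM after it. Values of 360, 484 and 457 FPKM followed at 5, 10 and 15 min, then 348 FPKM at 30 min, 144 FPKM at 60 min, 88.7 FPKM at 120 min and 167 FPKM at 240 min. The post-wash value was 24.0-fold the pre-wash value, and after 10 min each value was lower than the one before it until 120 min. At 120 min CCP2 stood at 18.3% of its highest value, which is still 18.2-fold above pre-wash but near its post-wash level (log2 difference -0.39). It was the only one of the 5 within 2-fold of post-wash at 60, 120 and 240 min.

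Its relative CCP1 (Cre04.g223300) was at 6.21 FPKM before the wash and 21.9 FPKM after it, and at 65.2, 100.1 and 120 FPKM at 5, 10 and 15 min. The 30 min sample had 229 FPKM, the samples at 60 and 120 min had 174 and 196 FPKM, and the last had 322 FPKM. It had its highest value at the last sampling and only a shallow dip after 30 min, with a log2 difference of -0.39 from 30 to 60 min. Against pre-wash the log2 difference was 1.67 directly after the wash and 5.48 at 240 min.

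CCP1 and CCP2 therefore changed places. The ratio of CCP2 to CCP1 was 0.785 before the wash and 5.34 after it. It was 5.53, 4.84 and 3.82 at 5, 10 and 15 min, 1.52 and 0.826 at 30 and 60 min, and 0.451 and 0.519 at 120 and 240 min. CCP2 led from post-wash to 30 min and CCP1 before the wash and from 60 min on. The ratio is taken within a sample, so a factor applied to a whole sample does not enter it. The pair is near-identical in sequence, and no source here tells how the authors' counting shared out reads that match both genes, so the separate values are uncertain. The sum of both genes, which sharing between them touches less, was 11.1 FPKM before the wash, 139 FPKM after it, 584 FPKM at 10 min, 285 FPKM at 120 min and 489 FPKM at the end.

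The deposited descriptions place CCP2 head-to-head with LCID and CCP1 head-to-head with LCIE, both genes of the LCIB family of carbonic anhydrase-like proteins. In the RefSeq gene order of assembly Chlamydomonas_reinhardtii_v5.5 these are direct neighbours, and 10 genes lie between CCP2 and CCP1. LCID had a course like that of CCP2, with 3.39 FPKM before the wash, 30.4 after it, 89.6 at 10 min and 27.1 at 120 min. LCIE was weak throughout, at 0.404 FPKM before the wash, 2.29 at 30 min, 1.05 at 60 min and 3.42 at 240 min, and like CCP1 it was higher at 30 and 240 min than at 60 and 120 min. LCID and LCIE resemble each other in sequence too, so the same uncertainty holds for them. Of the 10 genes in between, 8 passed the filter. At 10 min LCID alone was 2-fold above pre-wash (7.44% of all kept genes were) and the carbonic anhydrase gene CAH2 was lower, with a log2 difference of -1.12. At 240 min LCID, LCIE, the periplasmic carbonic anhydrase gene CAH1 and the unnamed gene Cre04.g222850 were higher (4.38% of all kept genes were), and SUR2 was lower, with -1.81. The gene on the other side of CCP2, ABC4, varied little, between 737 and 1056 FPKM.

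**Figure D2:**
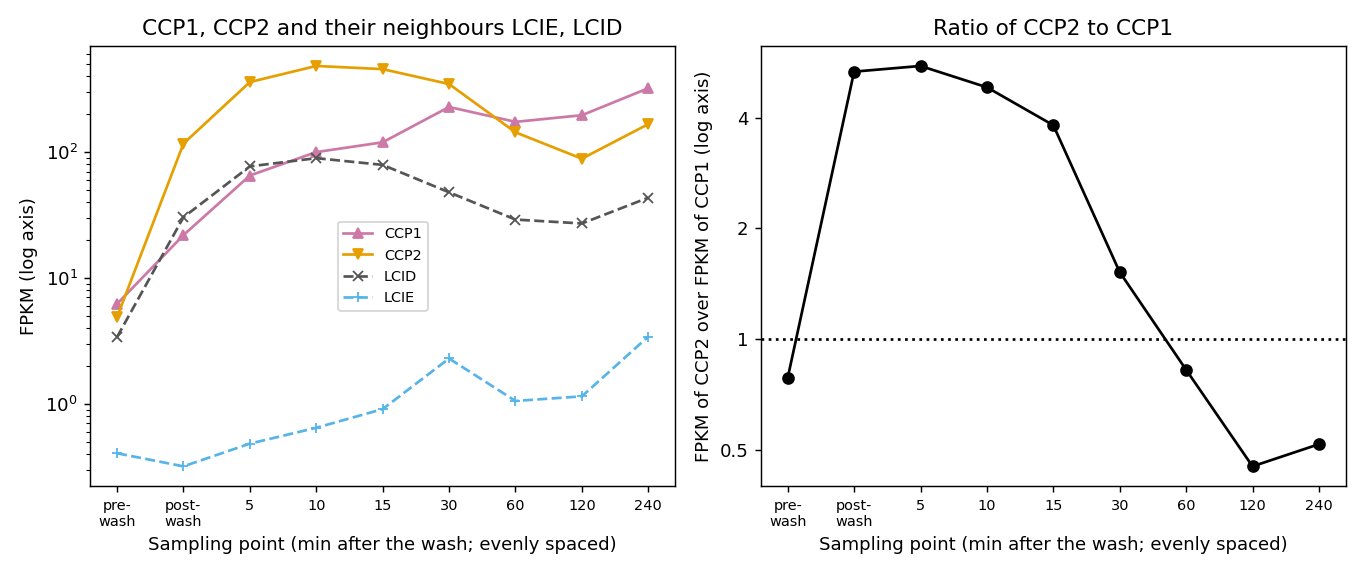
Left, FPKM on a log axis of CCP1 and CCP2 (solid lines) and of their head-to-head neighbours LCIE and LCID (dashed lines) at the 9 sampling points. Right, the ratio of CCP2 to CCP1 within each sampling point on a log axis, with a dotted line at 1. The ratio is above 1 from post-wash (5.34) to 30 min (1.52) and below 1 before the wash (0.785) and from 60 min on.

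By order of level, CCP1 came first before the wash (6.21 FPKM), closely followed by CCP2 (4.88 FPKM). From post-wash to 15 min the order was CCP2, NAR1.2 and CCP1, with HLA3 and LCI1 below them. At 30 min CCP2 (348 FPKM) and LCI1 (341 FPKM) were nearly level. From 60 min on the order was LCI1, CCP1, NAR1.2, CCP2 and HLA3, with CCP1 and NAR1.2 close together (174 and 170 FPKM at 60 min, 322 and 312 FPKM at 240 min). Without a replicate spread, such close neighbours cannot be ranked.

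The wash itself was the first comparison. Directly after it 3 of 5 transporter genes were at least 2-fold above pre-wash, where 8.47% of all kept genes were, and 0 were lower (background 1.18%). These were CCP2, NAR1.2 and CCP1, whose log2 differences of 4.33, 3.92 and 1.67 ranked 4th, 8th and 285th of 12580. HLA3 lay slightly below pre-wash, with -0.32. LCI1 was at 0.88, but at 1.76 with a pseudocount of 0.1, which makes 4 of 5 higher, and its plain ratio was 4.01. The median of the 5 genes was 1.67, against -0.00 for all genes.

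Against pre-wash all 5 genes were higher at each of the 7 later sampling points, with 0 lower. The background share of higher genes was 8.78%, 7.44% and 7.2% at 5, 10 and 15 min, 5.53% and 4.05% at 30 and 60 min, and 2.33% and 4.38% at 120 and 240 min. For lower genes it was 1.61%, 1.69%, 2.18%, 3.74%, 3.66%, 1.72% and 4.94% in the same order. The median log2 difference of the 5 genes was 3.42, 4.98 and 5.76 at 5, 10 and 15 min, 5.89 and 4.62 at 30 and 60 min, and 4.78 and 5.48 at 120 and 240 min. Over all genes the median stayed between 0.01 and 0.07 at these times. HLA3 came closest to the 2-fold line, with log2 differences of 1.15 at 60 min and 1.26 at 120 min.

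Against post-wash, which leaves out the step of the wash, all 5 genes were higher at 5, 10, 15 and 30 min, and the background shares were 1.87%, 3.6%, 5.15% and 8.92%. At 60, 120 and 240 min 4 of 5 were higher, all but CCP2, against 7.41%, 4.35% and 6.48% of all genes, and 0 were lower at any time. The shares of lower genes were 0.97%, 2.57%, 3.86% and 10.1% up to 30 min and 14.4%, 10.1% and 12.3% from 60 min on. In the first 5 min HLA3, LCI1 and NAR1.2 had log2(FPKM + 1) differences of 2.59, 2.54 and 2.31. On that scale they ranked 1st, 2nd and 6th of all genes, while CCP2 (1.62) and CCP1 (1.53) ranked 41st and 44th. Both sets of comparisons share their reference sample, pre-wash or post-wash, so an error in that sample enters each value of its set.

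**Figure D3:**
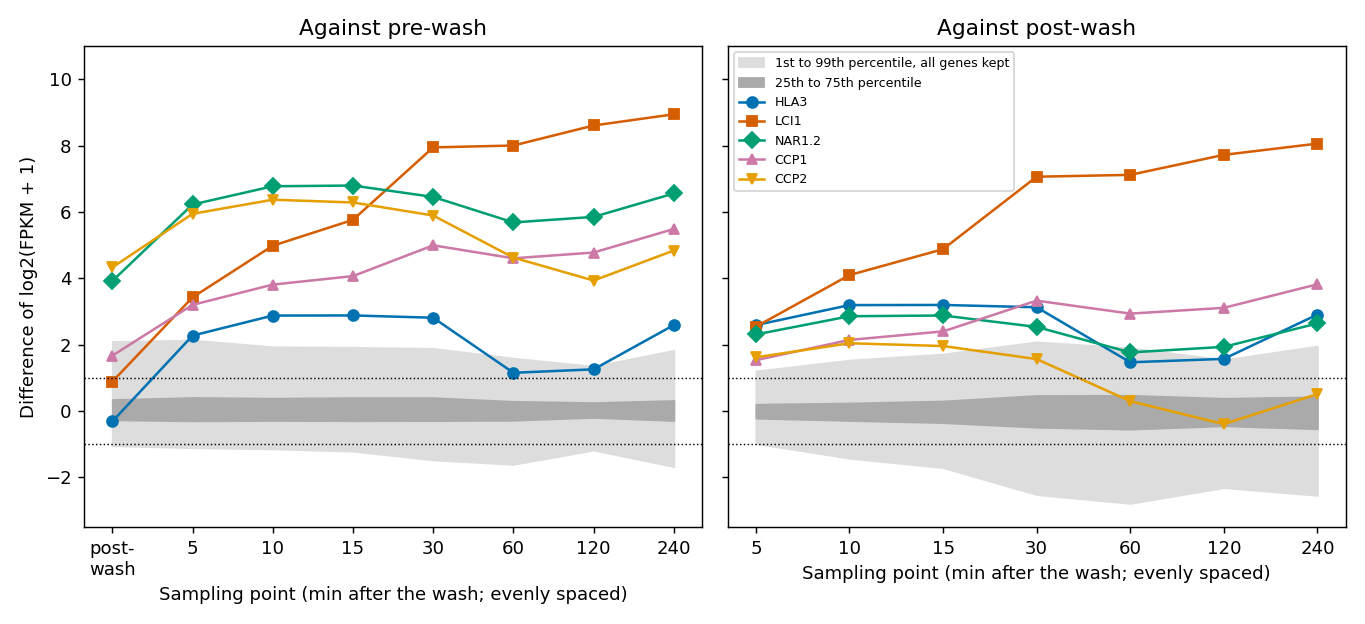
Difference of log2(FPKM + 1) from pre-wash (left) and from post-wash (right) for the 5 genes at each sampling point, with dotted lines at a 2-fold difference. The grey bands hold the 1st to 99th and the 25th to 75th percentile of the 12580 kept genes. Against pre-wash 4 of the genes lie above the wider band from 5 min on and HLA3 drops into it at 60 min (1.15) and 120 min (1.26). Against post-wash CCP2 lies in the inner band at 60 min (0.30) and 120 min (-0.39) and just above it at 240 min (0.51). HLA3 (1.47) and NAR1.2 (1.77) lie within the wider band at 60 min.

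Between neighbouring samples few differences reached 2-fold. From 5 to 10 min LCI1 alone of the 5 was higher (background 0.199%, and 0.191% lower), and from 15 to 30 min again LCI1 (background 0.548%, and 2.25% lower). From 10 to 15 min none was (0 of 5, background 0.0238% higher and 0.0318% lower). From 30 to 60 min HLA3 and CCP2 were lower, with log2 differences of -1.66 and -1.27, where 2.46% of all genes were, and 0 of 5 higher (background 0.803%). NAR1.2 (-0.77) and CCP1 (-0.39) lay in the same direction within 2-fold, and LCI1 was at 0.06. From 60 to 120 min 0 of 5 reached 2-fold, against 1.87% of all genes higher and 1.37% lower. From 120 to 240 min HLA3 was higher (background 0.795%, and 0.922% lower), and the other 4 were positive but under 2-fold, from 0.34 (LCI1) to 0.90 (CCP2).

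Other genes linked to the CO2-concentrating mechanism were followed with a list of carbonic anhydrases, low-CO2-inducible proteins, regulators and PGP1. The list matched 25 genes, all of which passed the filter. Against pre-wash 4 of the 25 were higher directly after the wash, 12, 13 and 14 at 5, 10 and 15 min, 16 and 13 at 30 and 60 min, and 10 and 11 at 120 and 240 min. Over all kept genes the shares were the 8.47% directly after the wash and 8.78% to 2.33% later that stand beside the transporter counts. At 10, 15 and 30 min 1 gene, the periplasmic carbonic anhydrase gene CAH2, was lower (backgrounds 1.69%, 2.18% and 3.74%). The list median was 1.05 at 10 min, 1.47 at 30 min and 0.87 at 240 min, below the 4.98, 5.89 and 5.48 of the 5 transporter genes. Both sets hold genes chosen with their response to CO2 known. The list also holds nearly unchanged genes, among them CAG1, CAG2 and CAG3, which varied by at most 1.26-fold in all. Its median therefore does not describe the low-CO2-inducible genes alone. Of the 25 genes, 9 were at least 2-fold above pre-wash in all 7 samples from 5 to 240 min, where 0.358% of all kept genes were. Only 4 of the 25 (CAH4, CAH5, LCI9 and LCI23) were at least 2-fold above post-wash in all 7, where 0.318% of all kept genes were.

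The list genes were highest at different times. LCID, LCR1 and the LCI11 gene Cre16.g663400, for a low-CO2-inducible membrane protein, were highest at 10 min, as was CCP2. LCIB and LCIC, which form a complex that recaptures CO2 leaking from the pyrenoid, were highest at 30 min, with 3477 and 2165 FPKM against 415 and 312 before the wash. A further group was highest at 240 min with LCI1 and CCP1. In it were the mitochondrial carbonic anhydrase genes CAH4 (13.1 FPKM before the wash and 415 at 240 min) and CAH5 (8.81 and 330), the septin-like gene LCI23 (0.0278 and 19.3) and CAH1 (69.5 and 3286). LCIE, CAS1 and the nearly unchanged CAG1, CAG2 and CAG3 were in it too. CAH4 and CAH5 are near-copies, so their separate values are uncertain. CAH1 differed from LCI1 in its start, with 61.9 FPKM directly after the wash, 87.4 FPKM at 5 min and 180 FPKM at 15 min, and was 0.33 above pre-wash on the log2 scale at 5 min where LCI1 was at 3.42. CAH6 was at 50.05 FPKM before the wash, highest directly after it with 225 FPKM, and at 36.9 FPKM at 30 min. It was thus higher over the wash, as were CCP2, NAR1.2 and CCP1, and below its post-wash value at all later times, as none of the 5 transporter genes was.

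**Figure D4:**
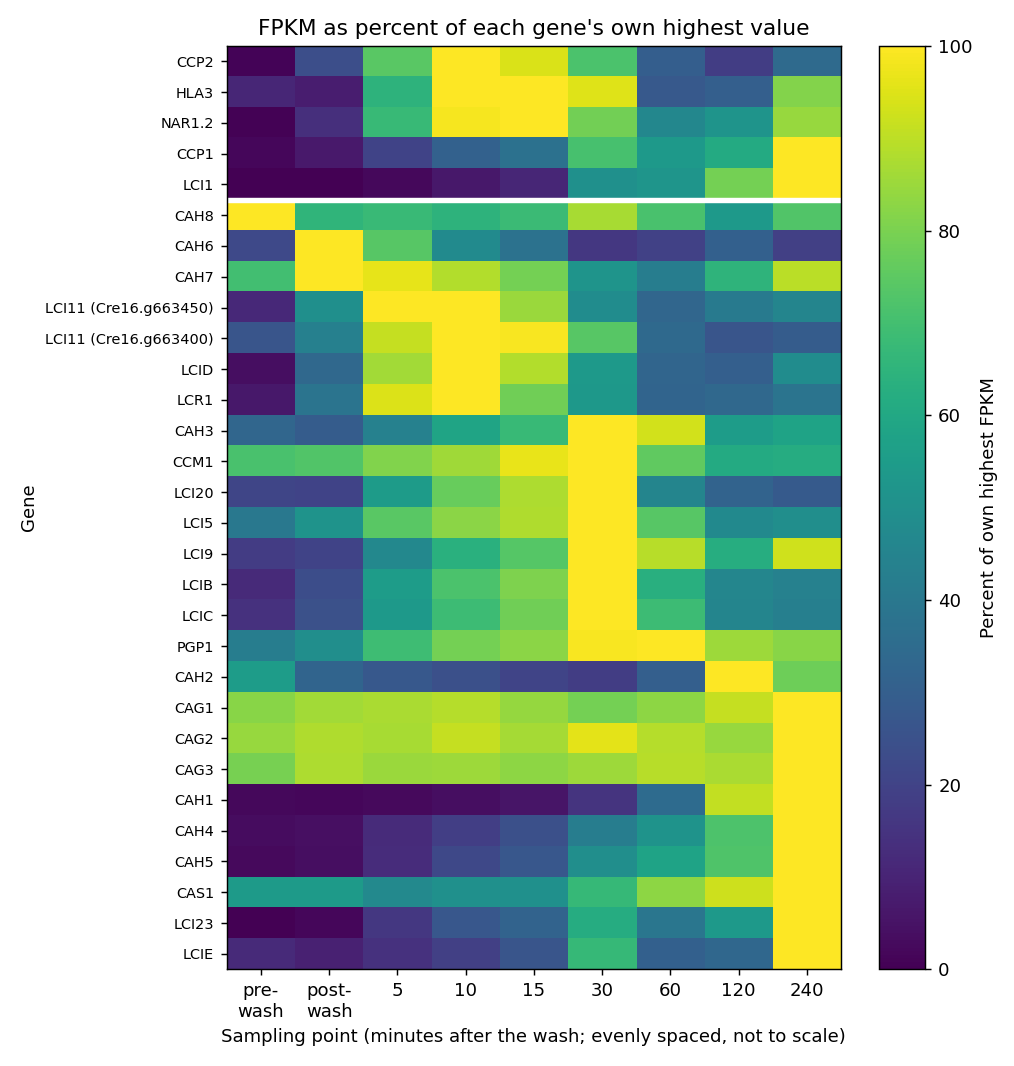
FPKM of the 5 transporter genes (above the white line) and of 25 other genes of the CO2-concentrating mechanism (below it) at the 9 sampling points, as percent of each gene's own highest value and sorted by the time of that value. CCP2, HLA3 and NAR1.2 have their maximum at 10 or 15 min, near those of LCID, LCR1 and the LCI11 genes, while LCI1 and CCP1 are at 100% at 240 min with CAH1, CAH4, CAH5 and LCI23.

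The regulators were singled out for their known roles, after their values had been seen. CCM1, on which low-CO2 expression of the transporter genes depends, varied by 1.64-fold in all, from 22.0 FPKM at 120 min to 36.1 FPKM at 30 min. LCR1, a MYB factor that acts on LCI1 according to the deposited description of LCI1, was at 5.00 FPKM before the wash, 30.2 after it, 73.9 and 78.2 FPKM at 5 and 10 min, 41.8 and 25.2 FPKM at 30 and 60 min, and 30.2 FPKM at the end. At 60 and 240 min LCR1 was near its post-wash level and still above pre-wash, with log2 differences of 2.13 and 2.38. LCI1 was at 355 and 682 FPKM at those times. A link between the levels of LCR1 and LCI1 was not tested. The calcium sensor gene CAS1 (Cre12.g497300), whose product is known for a part in keeping HLA3 and NAR1.2 expressed, was at 121 FPKM before the wash, 105 at 5 min and 222 at 240 min.

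Likeness between courses was measured as Pearson's r of log2(FPKM + 1) over the 9 sampling points, which share their libraries, so r is a description only. Within the 5, LCI1 and CCP1 were most alike (r = 0.96), followed by NAR1.2 and CCP2 (r = 0.94). LCI1 and CCP2 were least alike (r = 0.48). Several of these values rest on the low pre-wash sample: without it r was 0.67 for NAR1.2 and CCP2, 0.01 for CCP1 and CCP2 (0.69 with it) and -0.16 for LCI1 and CCP2, whereas for LCI1 and CCP1 the lowest r with any 1 sample left out was 0.96.

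Among all kept genes with a symbol, the 3 most like LCI1 were CAH5 (r = 0.996), CAH4 (r = 0.993) and the glutaredoxin gene GRX4 (r = 0.98). For CCP1 they were HPR1, a hydroxypyruvate reductase of photorespiration (r = 0.993), RBCS1, which encodes a Rubisco small subunit (r = 0.993), and LCI23 (r = 0.98). Likeness here says nothing of size, since RBCS1 went only from 2811 to 3751 FPKM and HPR1 from 54.0 to 130 FPKM between pre-wash and 240 min. CCP2 was most like its neighbour LCID (r = 0.99), LCI31 (r = 0.98) and LCR1 (r = 0.97). For NAR1.2 the 3 were the photoprotection gene LHCSR3.2 (r = 0.95), the cyclic-nucleotide phosphodiesterase gene PDE12 (r = 0.94) and CCP2 (r = 0.94), of which PDE12 had r = 0.71 without the pre-wash sample. HLA3 had CYG29, a gene for an adenylate or guanylate cyclase (r = 0.96), FAS3 (r = 0.96) and PHT6 (r = 0.94). CYG29 ran between 1.89 and 5.56 FPKM, FAS3 between 16.4 and 25.5 FPKM and PHT6 between 0.428 and 5.65 FPKM, beside 2.59 to 31.9 FPKM for HLA3.

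Further direct neighbours in the RefSeq order were looked at in the same way. LCI1 lies beside FAP292, a gene for a flagellar associated protein, which was at 52.7 FPKM before the wash, 242 after it, 268 at 5 min and 43.8 at 240 min. HLA3 lies beside the proteasome gene RPN6, between 19.1 and 34.5 FPKM, and NAR1.2 beside NOT2, between 6.65 and 10.8 FPKM. CYG62, next to CCP1 on the side away from LCIE, was at 1.65 FPKM before the wash, 1.11 FPKM after it, 4.56 FPKM at 10 min and 5.25 FPKM at 30 min. It was then at 3.90 FPKM at 60 min and 4.70 FPKM at 240 min, so like CCP1 it was lower at 60 min than at 30 and 240 min, but unlike CCP1 it was not higher directly after the wash.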

How the data were processed

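The authors deposited 1 table of FPKM for 17741 genes, with v5.6 gene identifiers per the file headers. The submitters' processing notes name the tools STAR 2.4.1 and Cuffdiff 2.0.2, without their options, the scaling between libraries or the use of strand. Each of 9 columns combines 2 cultures. A further 9 value columns, of a longer course whose samples are not among the 18, were not used. Because cultures are combined, the planned limma fits were not run. Differences of log2(FPKM + 1) were computed with Python 3.11.15, numpy 2.4.6 and pandas 2.3.3 over the 12580 genes that reached 1 FPKM in 2 or more columns. Counting was checked on simulated columns with known changes. Column sums ran from 631357 to 762490 FPKM.

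Of 29 names in the list of the mechanism, 5 matched no gene name or synonym (CAH9, CIA8, BST1, BST2 and BST3). Those genes may be in the table under other names. In addition 1 name (LCI11) matched 2 genes, and a terpenoid cyclase gene also called CAS1 was left out. Named genes are the 5 members, the 3 most similar genes to each, up to 4 list genes each way with the largest difference, and annotated neighbours. LCIC, the regulators and the NAR1 family were added after their values were seen. Members, lists and comparisons were chosen with earlier results of these data known. Promoter and protein sequences were not analysed here. RefSeq matched 17738 identifiers and served for gene order only.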

Additional observations from a re-analysis of the deposited data

How the results depend on the processing

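The results were recomputed with a pseudocount of 0.1, without a filter on low values, with FPKM of 5 or more required in at least 2 columns, with quantile normalization and with median-of-ratios scaling. Of 375 recomputed log2 differences of the 5 genes from pre-wash or post-wash, 374 kept their direction and their side of the 2-fold line. The exception was LCI1 directly after the wash, at 1.76 with a pseudocount of 0.1 against 0.88. The settings that change only the filter cannot alter the difference of a single gene. Their part of the 375 was the same by construction and says nothing of stability. Under quantile normalization 1 of the 25 other genes of the mechanism was lower than pre-wash directly after the wash, and 1 at 5 min, against 0 as reported. The same setting put the highest value of HLA3 at 240 min (30.0) instead of 15 min (28.4), and the log2 ratio of CCP2 to CCP1 at 240 min at -1.01 against -0.95. With a pseudocount of 0.1, 2 of the 3 genes most like LCI1 stayed. Differences between neighbouring samples (pseudocount of 0.1 and quantile normalization) and the ratio of CCP2 to CCP1 (quantile normalization) were recomputed by a choice made after seeing the data, and no call between neighbouring samples changed. No paired analysis was possible because the deposited columns combine both cultures, and for the same reason no replicate could be left out. Depth is unknown, which limits the pre-wash values of LCI1 and LCI23 most.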

Other observations

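Of the 45 genes at least 2-fold above pre-wash in all 7 samples from 5 to 240 min, 14 are transporter genes or genes of the list of the mechanism, and 31 are not. The list was matched by name only, and some of its names, BST1 to BST3 among them, matched no gene name or synonym. Genes known by those names can still be in the table under another name, inside or outside the list. Genes of the mechanism can therefore be among the 31. Of those 31, 12 have a symbol. They include the low-CO2-inducible genes LCI31 (15.8 FPKM before the wash and 153 at 10 min) and LCI16, whose deposited product is an early light-inducible protein (34.1 and 194 FPKM). The photoprotection genes LHCSR1, LHCSR3.1 and LHCSR3.2 were also among them, with LHCSR1 at 6.40 FPKM before the wash and 501 at 60 min. The others were the chloroplast DnaJ gene CDJ3, highest at 240 min (167 FPKM against 8.91 before the wash), the ZIP-family transporter gene IRT2, the chromate ion transporter gene CIT1, and SMM7, ADH5, CYG63 and CGL28. IRT2, whose deposited product line calls it iron-nutrition responsive, was at 2.85 FPKM before the wash and 24.7 FPKM at 240 min. CYG63 went from 0.302 FPKM before the wash and 0.797 after it to 10.1 at 10 min and 2.09 at 60 min, an early peak and a low value at 60 min as in HLA3.

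Among the 19 genes of this set without a symbol, Cre26.g756747 was at 0.969 FPKM before the wash, 24.6 after it, 191 at 10 min, 23.4 at 60 min and 30.9 at 240 min. Cre16.g662600 was at 18.9, 76.2, 425, 178 and 112 FPKM at the same points. Both were highest at 10 min, like CCP2, and were picked out after their values had been seen.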
